A study of Homo sapiens with 21 samples.

Results

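KLHDC7B and FNDC4 are 2 little-studied protein-coding genes whose RNA was lower in cells of the human liver line C3A after each of 5 herbicide exposures than in unexposed cells. They were picked by name for that pattern, out of 28808 genes in the deposited tables, so their differences from unexposed cells describe the choice and carry no test here. The data are RNA sequencing of 21 libraries as FPKM (fragments scaled by gene length and by a total per library). There were 3 libraries for each exposure and 6 for unexposed cells. C3A is a clonal derivative of the hepatoma line HepG2, and every group shares that 1 line. The exposures lasted 48 h and were glyphosate alone at 5.6 µM (0.95 µg/mL), AMPA alone at 34 µM (3.7 µg/mL), 2,4-D alone at 2.5 µM (0.56 µg/mL), glyphosate+2,4-D, and lastly AMPA+2,4-D, the labels giving no other concentrations for the mixtures. Unexposed C3A cells were the controls. Glyphosate and 2,4-D (2,4-dichlorophenoxyacetic acid) are herbicides, and AMPA (aminomethylphosphonic acid) is the main breakdown product of glyphosate. The labels do not say whether libraries of a group came from separate cultures, so p-values measure the spread between these libraries, which may be technical.

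KLHDC7B encodes a protein with Kelch repeats, a fold that in many proteins holds the substrate of a cullin-RING ubiquitin ligase. Some of its relatives, such as KLHDC2 and KLHDC3, are substrate receptors of ligases built on CUL2, which recognise the ends of proteins, while its own substrate is not established. KLHDC7B has mostly been studied in breast cancer. FNDC4 encodes a membrane protein with a fibronectin type III domain, from which a soluble form is released. It is the closest relative of FNDC5, the precursor of the muscle hormone irisin, and its soluble form has been described as a factor secreted by the liver that acts on fat tissue through the receptor ADGRF5.

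KLHDC7B (ENSG00000130487) lies at chr22:50545891-50551023 on the plus strand of GRCh38. Its main GENCODE v29 transcript is a single exon of 5133 bases, 3705 of which code for protein. FNDC4 (ENSG00000115226) lies at chr2:27491883-27495245 on the minus strand, and its main transcript has 7 exons and 702 coding bases. Both are rich in G and C, at 66.5% for KLHDC7B and 62.2% for FNDC4, against a median of 48.6% over the genes tested. The bases just upstream of the 2 genes are shown because their RNA moved together and the start regions could be compared. They are RefSeq promoter sequence of GRCh38.p14, read 5′ to 3′ on the strand of the gene and ended before the first annotated base of the transcript, at chr22:50545649-50545890 for KLHDC7B and chr2:27495246-27495450 for FNDC4. Capitals mark TGATGNAA, the element bound by C/EBP-ATF dimers, in KLHDC7B and GGGCGG, the GC box, in FNDC4, searched on both strands.
KLHDC7B: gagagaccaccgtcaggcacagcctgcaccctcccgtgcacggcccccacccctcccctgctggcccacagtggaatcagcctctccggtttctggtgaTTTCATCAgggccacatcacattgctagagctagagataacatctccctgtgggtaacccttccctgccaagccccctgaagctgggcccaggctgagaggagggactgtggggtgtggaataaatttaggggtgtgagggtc
FNDC4: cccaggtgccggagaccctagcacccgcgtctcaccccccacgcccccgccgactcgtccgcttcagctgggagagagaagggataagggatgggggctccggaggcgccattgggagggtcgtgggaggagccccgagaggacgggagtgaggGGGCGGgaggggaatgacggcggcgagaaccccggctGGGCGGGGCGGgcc

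The start regions had little in common. The 250 bases before the RefSeq start held 4 CpG pairs in KLHDC7B and 30 in FNDC4, against a median of 11 over 35116 promoters. In that window FNDC4 had 3 GC boxes, 2 of which overlap, and KLHDC7B had 0. A GC box is present in 42.6% of all promoters. KLHDC7B had 1 copy of TGATGNAA and FNDC4 had 0, and 3.14% of promoters hold that element. The CCAAT box, with the letters CCAAT, had 1 copy in FNDC4 and 0 in KLHDC7B, and is in 32.01% of promoters. Of the other motifs searched, the TATA box with the letters TATAAA (in 10.7% of promoters), the E box with CACGTG (in 6.35%) and the AP-1 site with TGANTCA (in 6.57%) had 0 copies in either gene. A match describes the letters only.

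Among all 21 libraries, 15.2 M to 24.35 M reads could be recovered per library. The labelled liver identity matched the markers, with all 9 hepatocyte markers above 1 FPKM in every library. Their summed level was 9143 to 10701 FPKM in exposed libraries and 5631 to 9298 FPKM in unexposed ones. The sum did not speak for every marker. HNF4A, at 23.9 to 28.4 FPKM in exposed and 43.1 to 45.6 FPKM in unexposed libraries, and APOB, at 333 to 436 FPKM in exposed and 443 to 571 FPKM in unexposed libraries, were lower in exposed cells without overlap. That order holds for 11.6% of the genes tested. APOA1 (676 to 916 FPKM in exposed, 385 to 615 in unexposed libraries), TF (226 to 275, 123 to 190), SERPINA1 (1511 to 1915, 1071 to 1373) and TTR (68.8 to 86.0, 29.6 to 62.5) were higher without overlap. The share of all genes with that higher order was not counted, so nothing is read from it. ALB, AFP and FGB overlapped. Of 6 listed markers of other cells, PDGFRB and KRT19 reached 1 FPKM and the others stayed at or under 0.106 FPKM. The summed level of the 6 was 23.4 to 31.5 FPKM in exposed and 21.6 to 34.7 FPKM in unexposed libraries. Ribosomal protein genes took 9.14% to 10.2% of FPKM in exposed and 7.16% to 8.37% in unexposed libraries. The part of these shifts in the results below was not tested.

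The unexposed libraries did not form 1 group. Replicates 1 to 3 stood apart from replicates 4 to 6, and the labels give nothing but the replicate number to tell them from each other. Every library of the first set was above every library of the second at 22.6% of the 13405 genes tested, which had at least 1 FPKM in at least 3 libraries. The differences of KLHDC7B and FNDC4 from unexposed cells are therefore also given against each set, and so are those of some other genes.

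KLHDC7B was lowest in the cells given glyphosate or AMPA alone and highest in unexposed replicates 1 to 3. Its level was 8.28, 7.67 and 6.64 FPKM in the glyphosate libraries. It was 8.40, 7.31 and 6.72 FPKM with AMPA, and 9.49, 9.91 and 8.11 FPKM with 2,4-D. Those 3 exposures overlapped in their values. With glyphosate+2,4-D it was 9.39, 8.79 and 8.91 FPKM, and with AMPA+2,4-D it was 8.24, 8.65 and 7.86 FPKM. In unexposed cells it was 33.8, 28.6 and 29.4 FPKM in replicates 1 to 3 and 23.6, 23.4 and 24.2 FPKM in replicates 4 to 6. The highest exposed library thus had 9.91 FPKM and the lowest unexposed one 23.4 FPKM, and the same order holds for 11.6% of genes. In recovered reads that was 505 to 950 per exposed library and 2217 to 3573 per unexposed one, so counting error was small beside the gap.

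On the log2(FPKM + 1) scale, which understates the change of low genes, KLHDC7B was 1.72 lower with glyphosate than in all 6 unexposed libraries (a difference of -1.72), and the difference was -1.72 with AMPA. It was -1.46 with 2,4-D, -1.48 with glyphosate+2,4-D and -1.59 with AMPA+2,4-D. No protein-coding gene tested had a more negative difference than KLHDC7B in the cells given glyphosate+2,4-D, where it ranked 1 of 10512. It ranked 2 with glyphosate, AMPA and AMPA+2,4-D, and 3 with 2,4-D. Against replicates 4 to 6 alone the differences ran from -1.55 to -1.29, and against replicates 1 to 3 alone from -1.90 to -1.64. In linear FPKM the 15 exposed libraries averaged 8.29 ± 0.957 FPKM (SD), which was 27.1% of the mean of replicates 1 to 3 and 34.9% of the mean of replicates 4 to 6. In bulk RNA, fewer cells that express a gene and less of its RNA per cell cannot be told apart.

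FNDC4 had the higher FPKM of the pair in every library. Its level was 14.8, 13.8 and 11.7 FPKM with glyphosate and 14.2, 13.8 and 12.6 FPKM with AMPA. It was 15.6, 17.6 and 14.6 FPKM with 2,4-D, 17.9, 18.4 and 17.7 FPKM with glyphosate+2,4-D, and 18.5, 17.4 and 15.2 FPKM with AMPA+2,4-D. All 6 mixture libraries lay above all 6 libraries of glyphosate or AMPA alone, as they did at 1.24% of genes. In unexposed cells FNDC4 was at 68.0, 70.3 and 67.0 FPKM in replicates 1 to 3 and 25.4, 34.9 and 28.9 FPKM in replicates 4 to 6. The unexposed sets were separated by more than the whole range of the exposed libraries, 11.7 to 18.5 FPKM. Exposed libraries held 344 to 659 FNDC4 reads and unexposed ones 920 to 2778.

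**Figure D1:**
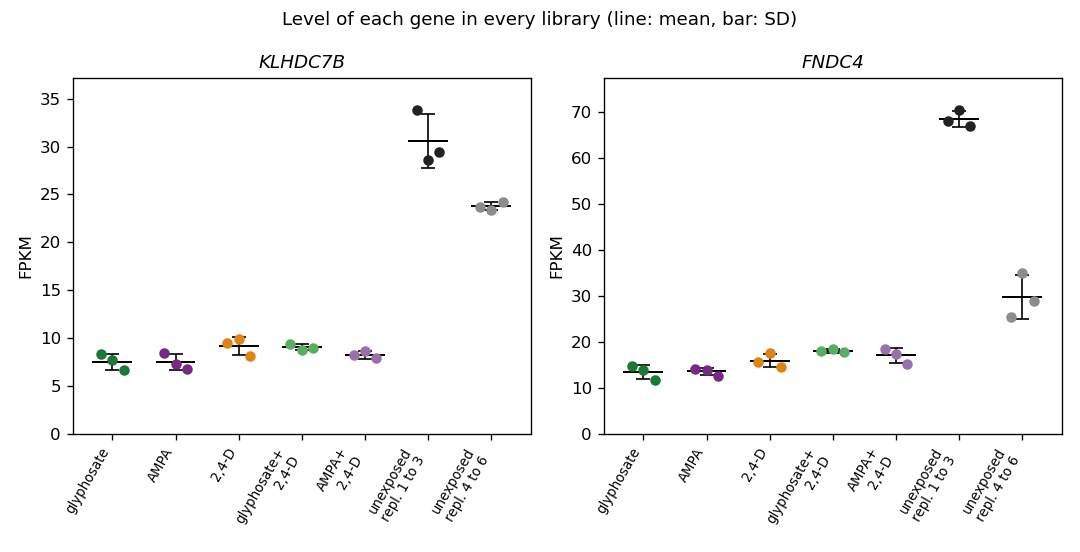
FPKM of KLHDC7B (left panel) and FNDC4 (right panel) in each of the 21 libraries, with 1 point per library, the mean as a line and the SD as a bar, for the 5 exposures and both unexposed sets. KLHDC7B stays at or under 9.91 FPKM in exposed and at or over 23.4 FPKM in unexposed libraries, and FNDC4 averages 68.5 FPKM in unexposed replicates 1 to 3 and 29.7 FPKM in replicates 4 to 6.

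Against all 6 unexposed libraries, the log2(FPKM + 1) difference of FNDC4 was -1.68 with glyphosate, -1.66 with AMPA and -1.45 with 2,4-D. It was -1.28 with glyphosate+2,4-D and -1.36 with AMPA+2,4-D. Its rank among protein-coding genes, from the most negative difference, was 3, 3, 4, 6 and 10 in the same order of exposures. The size depended on the unexposed set more than for KLHDC7B. Against replicates 1 to 3 alone the differences ran from -2.27 to -1.87, and against replicates 4 to 6 alone from -1.08 to -0.68. The mean of the exposed libraries, 15.6 ± 2.19 FPKM (SD, 15 libraries), was 22.8% of the mean of replicates 1 to 3 and 52.4% of the mean of replicates 4 to 6.

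The gap between the unexposed sets was thus a small part of the KLHDC7B difference and a large part of the FNDC4 difference. KLHDC7B averaged 30.6 ± 2.79 FPKM in replicates 1 to 3 and 23.7 ± 0.417 FPKM in replicates 4 to 6 (SD, 3 libraries each), a log2(FPKM + 1) difference of 0.35. FNDC4 averaged 68.5 ± 1.69 FPKM in replicates 1 to 3 and 29.7 ± 4.81 FPKM in replicates 4 to 6, a difference of 1.19. Of the distance from unexposed replicates 1 to 3 down to the mean of the 5 exposures, 19.7% lay between the unexposed sets for KLHDC7B and 57.2% for FNDC4. Both genes showed the order of replicates 1 to 3 above 4 to 6 above every exposed library, and so did 4.09% of the genes tested.

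Both genes separated exposed from unexposed libraries in each exposure taken alone. Every library of the exposure lay below every unexposed one for both genes, while 21.3% of genes did so with glyphosate, 20.5% with AMPA, 18.9% with 2,4-D, 19% with glyphosate+2,4-D and 18.2% for AMPA+2,4-D. The genes were chosen on this contrast, and nothing is read from these shares. The 5 comparisons share the same 6 unexposed libraries.

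The ratio of the 2 genes also differed between the unexposed sets. FNDC4 was 1.65 to 2.24 times KLHDC7B in FPKM over the 15 exposed libraries. In unexposed replicates 1 to 3 it was 2.01 to 2.46 times, and in replicates 4 to 6 it was 1.08 to 1.49 times. The exposed range lies above that of replicates 4 to 6 and overlaps that of replicates 1 to 3. As a description across libraries that share groups and scaling, Pearson's r of the 2 genes on log2(FPKM + 1) was 0.94 over all 21 libraries and 0.82 over the 15 exposed ones. With the mean of each exposure and of each unexposed set removed it was 0.51.

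**Figure D2:**
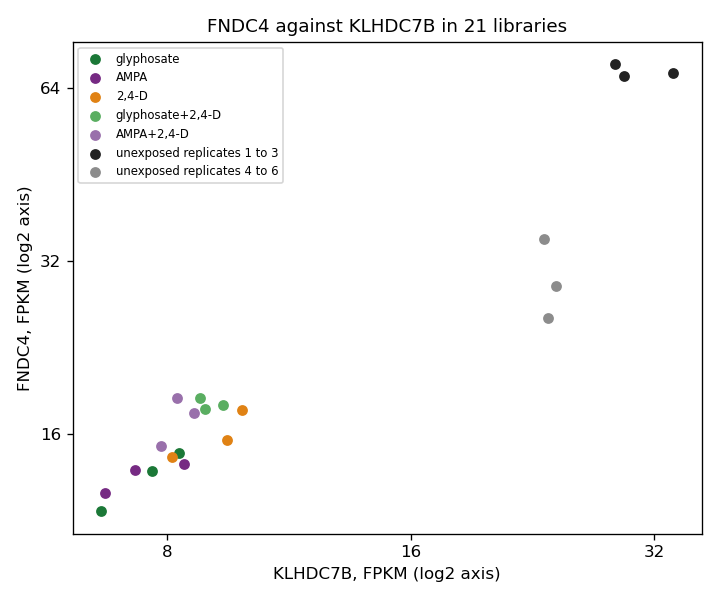
FPKM of FNDC4 (vertical) against FPKM of KLHDC7B (horizontal), both on log2 axes, with 1 point per library. The exposed libraries form 1 cloud at 6.64 to 9.91 FPKM of KLHDC7B, and unexposed replicates 4 to 6 lie between that cloud and replicates 1 to 3 on both axes.

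Comparisons between exposures do not involve the unexposed cells that defined the pair, and these were tested with limma across all 13405 genes with Benjamini-Hochberg adjustment. They ask whether adding 2,4-D to glyphosate or AMPA altered the level of either gene, and whether the single exposures differed. Over the fit of all 21 libraries, 0 of 8 comparisons passed for either gene, and at an unadjusted p under 0.05 limma gave 3 of 8 for KLHDC7B and 0 of 8 for FNDC4. With voom on recovered reads 0 of 8 passed for either gene as well. The shares of all genes called in these comparisons are low, at 2.43% for the mixtures against glyphosate and AMPA, 2.71% for AMPA+2,4-D against AMPA, and 0.261% for AMPA+2,4-D against glyphosate+2,4-D, with 0% in the other 5. At an unadjusted p under 0.05, limma gives 17.8% of genes for the mixtures against glyphosate and AMPA, 18.2% for AMPA+2,4-D minus AMPA and 15.7% for AMPA+2,4-D minus glyphosate+2,4-D. The other 5 give 7.95% of genes for glyphosate+2,4-D minus glyphosate, 4.31% for glyphosate+2,4-D minus 2,4-D, 10.6% for AMPA+2,4-D minus 2,4-D, 6.37% for 2,4-D minus glyphosate and 7.15% for 2,4-D minus AMPA. A fit of the 15 exposed libraries alone was added after the data were seen. At an unadjusted p under 0.05, limma there gave 4 of 8 for KLHDC7B and 5 of 8 for FNDC4. Of all genes, 7.22% to 24.1% reached that level in this fit, depending on the comparison.

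FNDC4 was higher in the mixtures than in glyphosate or AMPA alone. The mixtures averaged 18 ± 0.386 FPKM with glyphosate+2,4-D and 17.0 ± 1.64 FPKM with AMPA+2,4-D, against 13.4 ± 1.58 FPKM with glyphosate and 13.5 ± 0.841 FPKM with AMPA (SD, 3 libraries each). The pooled log2(FPKM + 1) difference, mixtures minus single exposures, was 0.36 with an SE of 0.21 and a 95% interval of -0.09 to 0.80 (limma, adjusted p = 0.406), so it did not pass. That spread takes in the gap between the unexposed sets. In a fit of the 15 exposed libraries alone, a choice made after the data were seen, the SE was 0.06, the interval 0.22 to 0.49 and limma's adjusted p 0.00782, where 6.19% of genes passed. Taken singly in that fit, glyphosate+2,4-D minus glyphosate was 0.40 (95% interval 0.21 to 0.59, limma adjusted p = 0.104, with 0.0298% of genes passing) and AMPA+2,4-D minus AMPA was 0.31 (0.12 to 0.50, limma adjusted p = 0.0529, with 6.87% passing). Neither passed, although the libraries did not overlap in either comparison. Groups failed to overlap at 20.3% and 25.5% of genes in those comparisons.

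KLHDC7B showed smaller differences in the same direction. The mixtures averaged 9.03 ± 0.314 FPKM with glyphosate+2,4-D and 8.25 ± 0.395 FPKM with AMPA+2,4-D, against 7.53 ± 0.829 FPKM with glyphosate and 7.48 ± 0.855 FPKM with AMPA (SD, 3 libraries each). The pooled difference was 0.18 with an SE of 0.08 and a 95% interval of 0.01 to 0.36 (limma, adjusted p = 0.25), and in the 15 exposed libraries alone limma's adjusted p was 0.0908. 2,4-D alone, at 9.17 ± 0.940 FPKM, lay 0.25 above glyphosate (95% interval 0.01 to 0.50) and 0.26 above AMPA (0.02 to 0.51), with limma adjusted p values of 0.771 and 0.656. Against 2,4-D alone, glyphosate+2,4-D differed by -0.02 (-0.26 to 0.23) and AMPA+2,4-D by -0.13 (-0.38 to 0.11). The sign of the glyphosate+2,4-D value turned when either of 2 2,4-D libraries or 1 glyphosate+2,4-D library was left out.

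For FNDC4 the mixtures were 0.17 (95% interval -0.46 to 0.80) and 0.09 (-0.54 to 0.72) above 2,4-D alone, the first value being for glyphosate+2,4-D and the other for AMPA+2,4-D. 2,4-D alone was 0.23 (-0.40 to 0.86) above glyphosate and 0.22 (-0.41 to 0.85) above AMPA. None of these passed. These intervals take in the gap between the unexposed sets. In the fit of the 15 exposed libraries alone, the mixtures minus 2,4-D had intervals of -0.02 to 0.36 and -0.10 to 0.28. 2,4-D minus glyphosate had 0.04 to 0.42 and 2,4-D minus AMPA 0.03 to 0.41 (limma adjusted p = 0.415 and 0.379). None of the 4 passed there, where at most 0.00746% of genes did. In the fit of all 21 libraries, AMPA+2,4-D minus glyphosate+2,4-D was -0.12 (-0.36 to 0.13) for KLHDC7B and -0.08 (-0.71 to 0.55) for FNDC4, at unequal concentrations of AMPA and glyphosate. The effect of adding 2,4-D to glyphosate minus that of adding it to AMPA was 0.11 (-0.24 to 0.45) for KLHDC7B and 0.09 (-0.80 to 0.98) for FNDC4, again not called. The intervals of the 21-library fit leave room for differences of the size seen in the mixtures.

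AMPA and glyphosate are related molecules given at unequal doses, 34 µM and 5.6 µM, so their values stand side by side without a test. KLHDC7B averaged 7.48 FPKM with AMPA and 7.53 FPKM with glyphosate, and FNDC4 averaged 13.5 FPKM with AMPA and 13.4 FPKM with glyphosate.

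**Figure D3:**
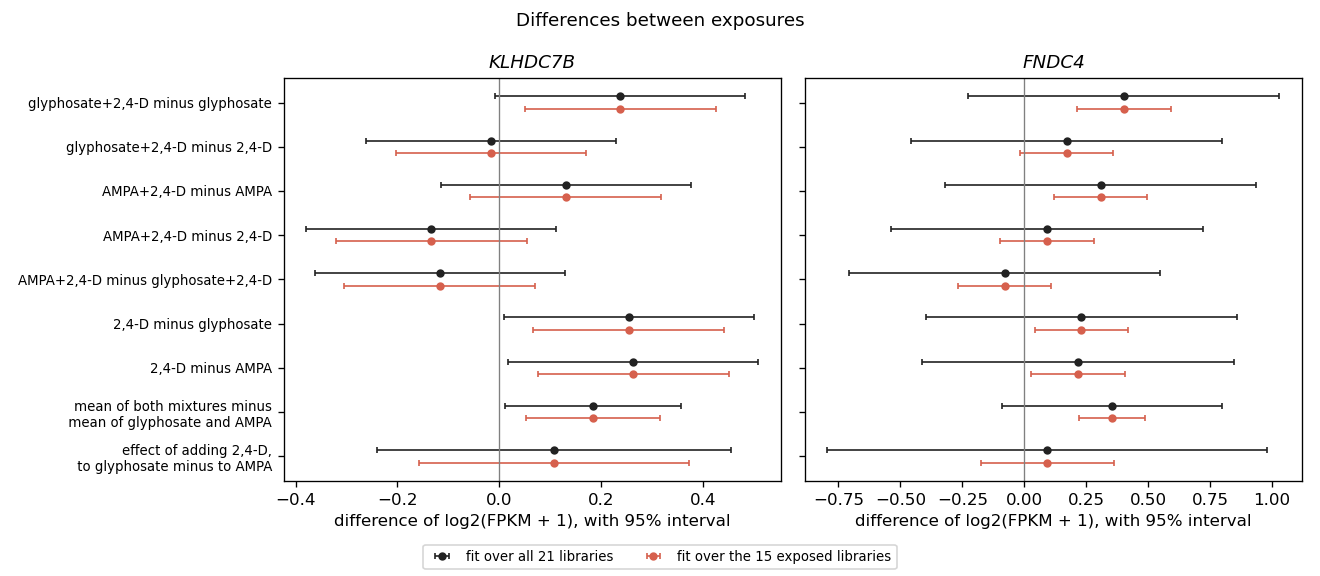
Differences of log2(FPKM + 1) between exposures for KLHDC7B (left panel) and FNDC4 (right panel), with 95% intervals from the fit over all 21 libraries (black) and over the 15 exposed libraries (red); the panels have different horizontal scales. The pooled FNDC4 interval, mixtures minus glyphosate and AMPA, is -0.09 to 0.80 in the first fit and 0.22 to 0.49 in the second.

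Each gene has a neighbour upstream, on the other strand, that was lower in exposed cells as well. U62317.1, named KLHDC7B-DT in current annotation, is a long noncoding RNA gene that starts close to KLHDC7B and runs the other way, at chr22:50542305-50542906 on the minus strand. It had 1.42 to 2.95 FPKM over exposed libraries, 7.42, 8.63 and 9.51 FPKM in unexposed replicates 1 to 3, and 4.64, 5.39 and 5.46 FPKM in replicates 4 to 6. Exposed and unexposed libraries did not overlap. Its log2(FPKM + 1) differences were -1.32 to -1.06 and passed in 5 of 5 exposures (limma, highest adjusted p = 8.67e-05), while genes passed as lower at 25.1% with glyphosate, 24.8% with AMPA, 22.6% with 2,4-D, 22.7% with glyphosate+2,4-D and 24.4% for AMPA+2,4-D. Without unexposed replicates 1 to 3 they were -1.01 to -0.74. It rested on 15 to 41 reads in exposed libraries. In GENCODE v29, whose start and end match for 100% of the genes tested, it lies 2985 bases from KLHDC7B. No other gene there has exons that overlap those of KLHDC7B. RefSeq lets this transcript run into the span of KLHDC7B, and no source used here says that counting used strand. Reads of such a longer transcript could not be told apart from those of KLHDC7B in the shared span. Its r with KLHDC7B was 0.92 over 21 libraries and -0.17 over the 15 exposed ones.

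GCKR, which encodes the regulator that holds glucokinase in the nucleus of liver cells, begins 1597 bases past the start of FNDC4 on the other strand, at chr2:27496842-27523684. It had 4.78 to 6.26 FPKM over exposed libraries, 17.1, 18.5 and 17.6 FPKM in unexposed replicates 1 to 3, and 6.09, 6.89 and 6.94 FPKM in replicates 4 to 6. The exposed range overlapped replicates 4 to 6 and stayed far under replicates 1 to 3. Its differences of -1.0 to -0.81 passed in 5 of 5 exposures (limma, highest adjusted p = 0.0201), and without replicates 1 to 3 they were -0.35 to -0.16 and passed in 4 of 5. Of its distance from replicates 1 to 3 down to the exposures, 83.1% lay between the unexposed sets, against 57.2% for FNDC4.

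**Figure D4:**
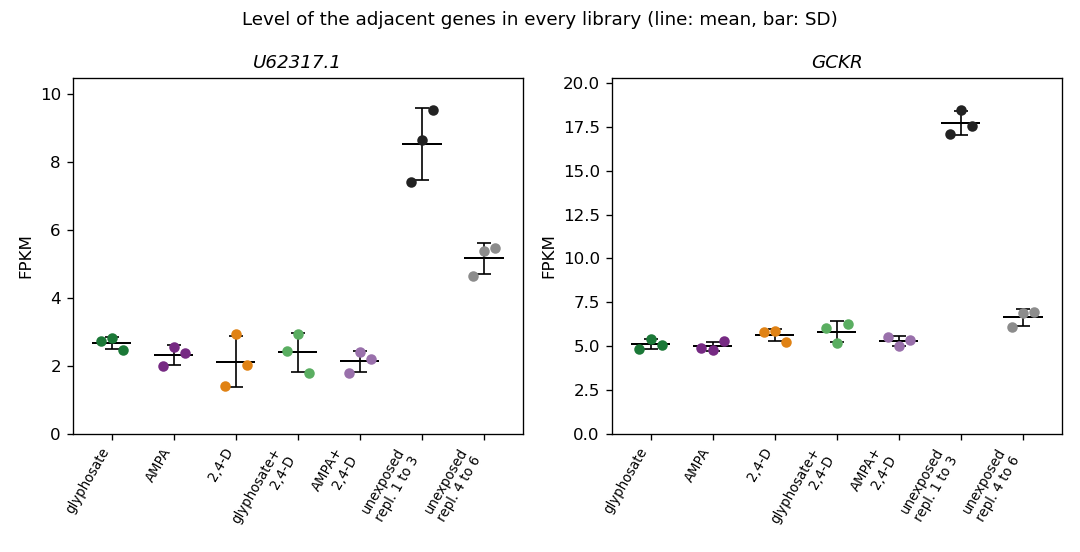
FPKM of U62317.1 (left panel), the noncoding gene beside KLHDC7B, and of GCKR (right panel), the gene beside FNDC4, in each of 21 libraries with the mean as a line and the SD as a bar. U62317.1 reaches at most 2.95 FPKM in exposed libraries and at least 4.64 FPKM in unexposed ones, while GCKR in unexposed replicates 4 to 6, at 6.09 to 6.94 FPKM, meets the top of the exposed range.

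The wider neighbourhoods did not move as blocks, although the genes near KLHDC7B leaned lower. Within 100 kb of KLHDC7B, 11 of 20 genes could be tested, and 5 to 7 were lower and 1 to 2 higher, depending on the exposure. Over all genes, 22.6% to 25.1% passed as lower, depending on the exposure. As higher, 27.7% of genes passed with glyphosate, 28% with AMPA, 25% with 2,4-D, 25.4% with glyphosate+2,4-D and 26% for AMPA+2,4-D. The median difference of the 11 neighbours was -0.35 to -0.23, against 0.00 to 0.01 over all genes tested. ADM2, a peptide hormone of the calcitonin family, was lower at -1.31 to -1.04 in 5 of 5 exposures, averaging 2.18 ± 0.302 FPKM in exposed and 6.21 ± 1.47 FPKM in unexposed libraries (SD, 15 and 6 libraries). TYMP, thymidine phosphorylase, was lower in 5 of 5 at -0.43 to -0.29, and in 4 of 5 without unexposed replicates 1 to 3. NCAPH2, a condensin II subunit, was higher in 5 of 5 at 0.33 to 0.55. SCO2, a copper chaperone listed under more than 1 gene entry, did not pass the filter for testing under any of them.

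Within 100 kb of FNDC4, 6 of 9 genes reached 1 FPKM in at least 3 exposed and at least 3 unexposed libraries, and 1 to 2 were lower and 1 higher, with a median difference of -0.08 to 0.05. Among all genes tested, 22.6% to 25.1% were lower and 25% to 28% higher. NRBP1, a pseudokinase, was higher in 5 of 5 exposures at 0.19 to 0.28, and in 3 of 5 after rescaling to TPM. IFT172, a subunit of the transport machinery of cilia that lies next to FNDC4 on the side away from GCKR, differed by -0.17 to -0.05 and passed in 1 of 5.

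Relatives of KLHDC7B were mixed. Of 9 KLHDC genes, 5 reached 1 FPKM in at least 3 exposed and at least 3 unexposed libraries. Of these 5, 1 to 2 were lower and 0 to 1 higher by exposure, with a median of -0.04 to 0.05. The shares over all genes were 22.6% to 25.1% lower and 25% to 28% higher. KLHDC7A, the closest relative, is given as levels and not counted, averaging 0.655 ± 0.17 FPKM in exposed and 2.22 ± 0.663 FPKM in unexposed libraries (SD). It passed the filter on low values through unexposed libraries alone, which favours a lower call. Unlike KLHDC7B it was lower in replicates 1 to 3, at 1.49 to 1.75 FPKM, than in replicates 4 to 6, at 2.50 to 3.13 FPKM. KLHDC2 differed by -0.18 to -0.11 and passed as lower in 4 of 5. KLHDC3 differed by 0.05 to 0.24, passed as higher in 4 of 5, and in 0 of 5 on TPM. KLHDC4 differed by -0.17 to -0.06 and passed in 2 of 5, and in 5 of 5 on TPM.

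Of 5 partners of such ligases tested, 3 to 4 were higher and 0 to 1 lower by exposure, with a median of 0.15 to 0.26. On TPM 1 to 3 were higher. On FPKM, 25% to 28% of all genes passed as higher and 22.6% to 25.1% as lower. The share of all genes on TPM is not given here. ELOB and ELOC, the adaptor pair of CUL2 ligases, were higher in 5 of 5 exposures at 0.40 to 0.50 and 0.25 to 0.33. ELOC was called in 4 of 5 on TPM. CUL3, a ligase scaffold, was higher in 5 of 5 at 0.15 to 0.26, and in 2 of 5 on TPM. RBX1, the RING subunit, differed by 0.14 to 0.21 and passed in 4 of 5, and in 0 of 5 on TPM or without unexposed replicates 1 to 3.

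Relatives of FNDC4 were mostly near or below detection, and 2 of 9 FNDC genes could be tested. Of all genes, 22.6% to 25.1% passed as lower and 25% to 28% as higher, by exposure. FNDC3A was lower in 5 of 5 exposures at -0.35 to -0.22, averaging 18.7 ± 0.926 FPKM in exposed and 23.4 ± 3.49 FPKM in unexposed libraries (SD), and it passed in 3 of 5 without unexposed replicates 1 to 3. FNDC3B differed by -0.02 to 0.21 and passed as higher in 1 of 5. Against replicates 1 to 3 alone it was higher in 5 of 5, and against replicates 4 to 6 alone it was lower in 1 of 5. FNDC5 was too low to test. ADGRF5, the receptor, was among the genes set to be named, but it has no test result here.

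Other factors secreted by the liver went in both directions. Of 22 in the list, 16 reached 1 FPKM in at least 3 exposed and at least 3 unexposed libraries, with 5 to 6 higher and 3 to 6 lower by exposure, against 25% to 28% of all genes higher and 22.6% to 25.1% lower. Their median was -0.07 to 0.04, but -0.16 to -0.0049 without unexposed replicates 1 to 3 and 0.05 to 0.25 without replicates 4 to 6, so its sign depends on the set. ANGPTL4, an inhibitor of lipoprotein lipase, was higher in 5 of 5 exposures at 1.1 to 1.62, averaging 7.33 ± 1.4 FPKM in exposed and 2.25 ± 0.368 FPKM in unexposed libraries (SD). GDF15, a stress hormone that curbs appetite, was higher in 5 of 5 at 0.53 to 0.80. IGFBP2, a carrier of insulin-like growth factors, had 1.99 to 3.90 FPKM in exposed and 0.135 to 0.598 FPKM in unexposed libraries. It passed the low-value filter through exposed libraries alone and is not counted. INHBE, which encodes a subunit of activin E, was lower in 5 of 5 at -1.0 to -0.75, averaging 33.4 ± 3.05 FPKM in exposed and 62.5 ± 6.31 FPKM in unexposed libraries.

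Genes induced by interferon, a group with which KLHDC7B has been linked in breast cancer cells, also went both ways. Of 25 in the list 15 could be tested, with 4 to 5 higher and 4 to 8 lower by exposure and a median of -0.13 to -0.02. Over all genes 25% to 28% passed as higher and 22.6% to 25.1% as lower. ISG15, a ubiquitin-like modifier, was higher in 5 of 5 exposures at 0.70 to 0.92, at 0.42 to 0.64 without unexposed replicates 1 to 3 and at 0.98 to 1.19 without replicates 4 to 6. IFI35 was lower in 5 of 5 at -0.92 to -0.63. IFITM2 was higher at 0.28 to 0.62 and IFITM3 lower at -0.71 to -0.42, each in 5 of 5, but these near-identical genes may exchange reads, so their values are uncertain.

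The protein-coding genes whose levels followed KLHDC7B most closely over 21 libraries, by Pearson's r on log2(FPKM + 1), were CEBPA, a transcription factor of liver cells (0.99), PCK2, the mitochondrial enzyme that makes phosphoenolpyruvate (0.99), WARS, a tryptophan tRNA ligase (0.99), MOCOS, which activates molybdenum enzymes (0.99), and SDF2L1, of the endoplasmic reticulum (0.99). All were lower in 5 of 5 exposures, which the choice by likeness to KLHDC7B fixes. CEBPA averaged 15.9 ± 1.13 FPKM in exposed and 34.9 ± 3.9 FPKM in unexposed libraries (SD). Such values include the step between exposed and unexposed libraries. Over the 15 exposed libraries alone r was 0.78 for CEBPA and 0.86 for PCK2, and the highest were 0.88 for ABCG8, a sterol transporter, 0.87 for EPHB4, an ephrin receptor, and 0.86 for TECTB. ABCG8 reached 1 FPKM in unexposed libraries only.

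FNDC4 was most closely followed by HIBADH, of valine breakdown (r = 0.98), GHITM, a mitochondrial membrane protein (0.98), PREPL, a peptidase-like protein (0.98), HMOX1, heme oxygenase (0.98), and LAMP3, a lysosomal membrane protein (0.98). Each was higher in every library of unexposed replicates 1 to 3 than in replicates 4 to 6, an order that the choice favours and that 22.6% of genes show. HMOX1 had 12.2 to 15.5 FPKM over exposed libraries, against 36.0 to 40.8 FPKM for replicates 1 to 3 of unexposed cells and 19.2 to 20.4 FPKM for their replicates 4 to 6. Over the 15 exposed libraries alone the closest genes were AIF1L, an actin-binding protein (0.98), IDH1, the cytosolic isocitrate dehydrogenase (0.95), and C1RL, a complement-related protease (0.94). FNDC4 ranked 312 among 10511 genes by likeness to KLHDC7B over 21 libraries and 13 over the 15 exposed ones. AIF1L and IDH1 also shared the difference between mixtures and single exposures, at 0.30 and 0.37 in the fit of 15 exposed libraries (limma, adjusted p = 0.00615 and 0.00308), but they were picked for following FNDC4 in the same libraries, so this repeats the choice.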

How the data were processed

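The 21 C3A libraries were read from tables of FPKM values deposited by the authors, 1 per group. Reads were aligned to GRCh38 with HISAT2 2.0.5 and counted with featureCounts 1.5.0-p3, per the submitters' processing notes. Strand and FPKM scaling are not given in the sources used here. Multiplied by gene length and divided by the step of each library, 100% of values lay within 0.1 of a whole read, which gave reads back. Genes with at least 1 FPKM in at least 3 libraries and present in all 6 tables, 13405 of 28808, were tested on log2(FPKM + 1) with limma (3.58.1) in R (4.3.3), group means over 21 libraries and a mean-variance trend, adjusted per comparison and called at an adjusted p under 0.05. The 2 genes and all gene lists were chosen with earlier results of these data known. Other genes were named by rule: fixed relatives and neighbours, up to 4 tested genes with the smallest p per list, and the 5 (21 libraries) or 3 (15 exposed libraries) highest r per gene. On simulated data with 200 changed genes, 50% of 1.25-fold and 78% of 1.5-fold changes were recovered for glyphosate+2,4-D minus glyphosate. These shares are not the power for the 2 genes, whose SEs in that comparison were 0.12 for KLHDC7B and 0.30 for FNDC4. In the real libraries that comparison called 0 genes. Alternatives were another pseudocount, no filter, median-of-ratios scaling, TPM, voom on recovered reads, a replicate block, the compared groups alone, either unexposed set or any library left out, and, added after seeing the data, GC and length trends removed and the exposed libraries alone. No 2 libraries of a group agreed within sampling noise.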

Additional observations from a re-analysis of the deposited data

Results flagged for a closer look

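In unexposed cells IFITM2 had 18.27 FPKM in replicate 1, far from the other 5 libraries, which had 14.5 to 15.2 FPKM. This was the only flag among 43 named genes, where chance alone marks about 1 in 20 groups, and the value lies in a gene that is nearly identical to IFITM3. The unexposed values of KLHDC7B and FNDC4 fall into 2 sets of 3 and gave no single distant library. The effect of adding 2,4-D did not pass a test of its difference between glyphosate and AMPA for either gene.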

How the results depend on the processing

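The differences of KLHDC7B and FNDC4 from unexposed cells kept their sign in each alternative run. For glyphosate, AMPA, 2,4-D, glyphosate+2,4-D and then AMPA+2,4-D in that order, KLHDC7B was at -1.90, -1.98, -1.62, -1.68 and -1.78 on TPM, and at -1.94, -2.0, -1.66, -1.69 and -1.82 with voom on recovered reads. Without unexposed replicates 1 to 3 it was at -1.54, -1.55, -1.29, -1.30 and -1.42, and FNDC4 at -1.08, -1.07, -0.85, -0.68 and -0.76. Without replicates 4 to 6, KLHDC7B was at -1.89, -1.90, -1.64, -1.65 and -1.77, and FNDC4 at -2.27, -2.26, -2.04, -1.87 and -1.95. Moving to TPM shifts the median of all genes by -0.10 for the mean of the 5 exposures. With 1 library left out, KLHDC7B ranged from -1.80 to -1.38 and FNDC4 from -1.84 to -1.15 over the 5 exposures.

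The replicate numbers do not pair the samples: over 45 pairs of groups and numbers the deviations correlated at -0.137 to 0.0884. A replicate block gives the values without replicates 4 to 6, since those numbers exist in unexposed cells alone, so KLHDC7B is again at -1.89, -1.90, -1.64, -1.65 and -1.77, and FNDC4 at -2.27, -2.26, -2.04, -1.87 and -1.95. Between exposures the block calls FNDC4 in glyphosate+2,4-D minus glyphosate (0.40, limma adjusted p = 0.0450) and in AMPA+2,4-D minus AMPA (0.31, limma adjusted p = 0.0118). In both mixtures minus glyphosate and AMPA it calls FNDC4 (0.36, limma adjusted p = 0.00208) and KLHDC7B (0.18, limma adjusted p = 0.0295). The share of all genes called under the block is not given here. Across the alternatives, genes called in these comparisons numbered 0 to 13, 0 to 927 and 58 to 830, in the same order.

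Between exposures, FNDC4 in the mixtures minus glyphosate and AMPA (0.36) also passed when only the compared groups were fitted (limma adjusted p = 0.0129) and when only the 15 exposed libraries were (0.00782). FNDC4 passed in 1 of 8 comparisons without unexposed replicates 1 to 3 and in 2 of 8 without replicates 4 to 6. How large a share of all genes passed in those fits, and in that of the compared groups, is not given here. Removing GC and length trends turned FNDC4 in AMPA+2,4-D minus glyphosate+2,4-D to 0.038 and its difference between the effects of adding 2,4-D to -0.00058. KLHDC7B in glyphosate+2,4-D minus 2,4-D ranged from -0.093 to 0.036 with 1 library left out. The mixtures called 326 genes against glyphosate and AMPA, and 58 to 830 across the alternatives. FNDC3B, for the mean of the 5 exposures, turned to -0.0098 on TPM, -0.0023 with voom and -0.042 without unexposed replicates 1 to 3. Among neighbours of KLHDC7B, 3 to 7 were lower without replicates 1 to 3 and 6 to 8 on TPM. Without replicates 1 to 3, 0 to 2 FNDC genes and 5 to 7 of 16 secreted factors were lower, and without replicates 4 to 6, 7 to 8 of these 16 were higher. Why these values moved was not tested. For these lists, too, the shares of all genes called in the same settings are not given. On TPM the median difference of all genes was itself -0.13 to -0.07 across the 5 exposures. Depth limits U62317.1, with as few as 15 reads.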
